A study of Homo sapiens with 12 samples.

Results

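MT-ATP8, MT-ATP6 and MT-CYB are 3 of the 13 mitochondrial mRNAs (mt-mRNAs) and 3 of the 35 mitochondrial genes counted in this series. They were chosen by name, MT-ATP8 and MT-ATP6 as overlapping genes of the same mRNA and MT-CYB as a further member. The rule of choice used no measured value, although earlier results of these data were known when the genes were chosen. RNA from isolated mitochondria was sequenced in HEK293T cells, an established line of human embryonic kidney origin, with 3 samples of PDE12+/+ cells and 3 of PDE12-/- cells. PDE12-/- cells carry frameshifting indels in both alleles of PDE12 after a zinc finger nuclease was directed to exon 1, and the methods describe such lines as single-cell clones. The PDE12+/+ cells are the unedited genotype of that line. Nothing in the labels says that replicates are separate cultures, so p-values measure the spread between these samples, which may be technical. The transcript of PDE12, a nuclear gene, was not analysed here, so the knockout was not checked in these counts. The comparison asks whether the levels of these mt-mRNAs differ between PDE12-/- and PDE12+/+ cells. No RNA-seq sample has PDE12 restored, so loss of PDE12 cannot be told apart from a trait of the clone.

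PDE12 is a 3'-to-5' exoribonuclease of the mitochondrial matrix that removes poly(A). Human mtDNA is transcribed from both strands into long precursors, which are cut mostly at the mt-tRNAs that lie between the mRNAs, and most mt-mRNAs then receive a poly(A) tail. MT-ATP8 and MT-ATP6 encode membrane subunits of ATP synthase (complex V), and their shared mRNA is read in different frames. MT-CYB encodes cytochrome b, the mitochondrially made subunit of the bc1 complex (complex III), which passes electrons from ubiquinol to cytochrome c.

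All 3 genes lie on the + strand of chrM (GRCh38) and consist of a coding exon with no intron. MT-ATP8 covers chrM:8366-8572 (207 nt), MT-ATP6 covers chrM:8527-9207 (681 nt) and MT-CYB covers chrM:14747-15887 (1141 nt). MT-ATP8 and MT-ATP6 share 46 nt (8527 to 8572), which is 22.2% of the length of MT-ATP8, and MT-ATP6 shares a further 1 nt with MT-CO3. MT-CYB shares no base with another gene. The borders of the genes are shown in the reference sequence because they decide where a read can belong to more than a single gene. They are printed 5' to 3' on the + strand, and the capitals mark the start codon of MT-ATP6 (chrM:8514-8543), the stop codon of MT-ATP8 (chrM:8557-8586), the joined end of MT-ATP6 and start codon of MT-CO3 (chrM:9193-9222), the start codon of MT-CYB (chrM:14734-14763) and the last base of MT-CYB (chrM:15873-15902).
MT-ATP6 start: cctgagaaccaaaATGaacgaaaatctgtt
MT-ATP8 end: gcccccacaatccTAGgcctacccgccgca
MT-ATP6 end and MT-CO3 start: cacgacaacacaTAATGacccaccaatcac
MT-CYB start: tacaagaacaccaATGaccccaatacgcaa
MT-CYB end: tactcaaatgggccTgtccttgtagtataa

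The start codon of MT-ATP6 thus stands before the stop codon of MT-ATP8, with the frames offset by 2 bases. MT-CYB ends on a lone T, and the stop codon is completed only when A residues are added after cleavage at the neighbouring mt-tRNA gene MT-TT, which starts at the next base. MT-ATP6 ends on TAA in the annotation, but the last A is also the first base of MT-CO3. The paper counts ATP6, like CytB, among the mt-mRNAs whose stop codon needs polyadenylation to be complete. Lysine codons make up 7 of the 68 sense codons of MT-ATP8 (10.3%), the highest share of the 13 mt-mRNAs. They are 6 of 226 codons in MT-ATP6 (2.65%) and 9 of 380 in MT-CYB (2.37%), the 4th and 7th highest shares.

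Total counts per sample were between 36338 and 104708, and 86.5% to 92.5% of them were sense counts of the 13 mt-mRNAs. These totals cover mitochondrial genes alone and are not the depth of the libraries. MT-CO1 and MT-CO3, subunits of cytochrome c oxidase (complex IV), held 61.7% to 70.5% of the sense mt-mRNA counts, so shares of these counts are relative to them. No RNA from outside mtDNA was counted, and a shift common to all mitochondrial features could not be seen.

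The 3 mRNAs had higher mean levels in PDE12-/- than in PDE12+/+ cells, by 1.36-fold to 1.46-fold, and these differences did not pass the test. Levels are counts brought to a common library size (CPM) with edgeR's TMM method and divided by gene length, in CPM per kb. TMM factors ran from 0.777 in PDE12+/+ replicate 2 to 1.37 in PDE12-/- replicate 1. MT-ATP6 had 34021, 63844 and 60059 CPM per kb in PDE12+/+ replicates 1, 2 and 3. In PDE12-/- it had 53731, 91128 and 85677 CPM per kb. The lowest PDE12-/- sample lay below the 2 highest PDE12+/+ samples, so the groups overlapped. The means were 52642 ± 16236 and 76845 ± 20202 CPM per kb (SD, n = 3).

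MT-ATP8 had 11935, 21841 and 13875 CPM per kb in PDE12+/+. It had 19228, 31361 and 18905 CPM per kb in PDE12-/-. The second replicate was the highest in both genotypes, and PDE12+/+ replicate 2 lay above 2 of the 3 PDE12-/- samples. The means were 15884 ± 5249 and 23164 ± 7100 CPM per kb (SD, n = 3).

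MT-CYB had 15621, 28318 and 31013 CPM per kb in PDE12+/+. It had 23553, 43862 and 34350 CPM per kb in PDE12-/-. Replicate 1 was the lowest sample of each genotype, and PDE12-/- replicate 1 lay below 2 of the 3 PDE12+/+ samples. The means were 24984 ± 8219 and 33922 ± 10161 CPM per kb (SD, n = 3). On this scale 0 of the 3 members had groups that did not overlap, against 4 of all 68 features fitted that were apart and higher in PDE12-/- (5.88%) and 6 that were apart and lower (8.82%). Of the 13 sense mt-mRNAs 1, MT-ND2, was apart and higher (7.69%), and 0 were apart and lower.

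**Figure D1:**
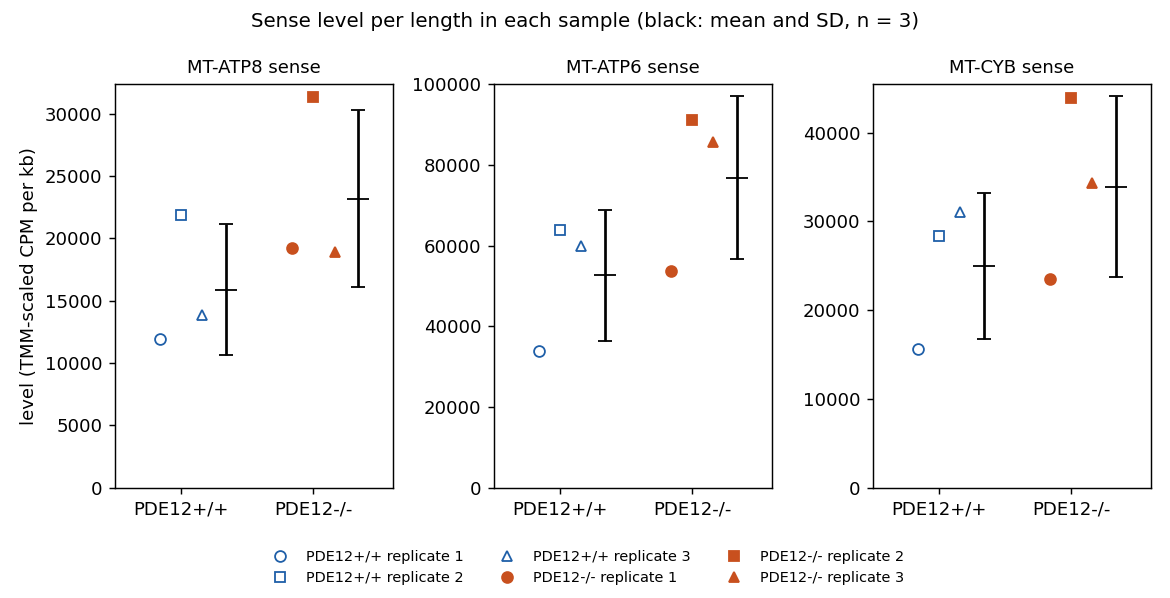
The vertical axes give the sense level in TMM-scaled CPM per kb for MT-ATP8, MT-ATP6 and MT-CYB, with a symbol for each sample and the mean and SD of 3 samples in black. Each mean was higher in PDE12-/-, and for each gene PDE12-/- replicate 1 lay within the range of PDE12+/+.

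By the quasi-likelihood test of edgeR, adjusted over all features by the Benjamini-Hochberg method, 0 of the 3 members passed an adjusted p of 0.05, and 0 of 68 features fitted did (0%). MT-ATP6 had a log2 fold change of 0.54 (standard error 0.34, 95% interval −0.12 to 1.21, adjusted p = 0.705 in the edgeR test). MT-ATP8 had 0.54 (standard error 0.35, 95% interval −0.15 to 1.22) with the same adjusted p of 0.705. MT-CYB had 0.44 (standard error 0.34, 95% interval −0.22 to 1.10) and an adjusted p of 0.762. The upper bounds correspond to 2.31-fold, 2.33-fold and 2.15-fold, so the data leave room for differences of that size. The unadjusted edgeR p was 0.106, 0.124 and 0.191 for MT-ATP6, MT-ATP8 and MT-CYB, and 5 of the 68 features (7.35%) had an unadjusted p under 0.05, with no member among them (MT-ND2, MT-TD and MT-TK sense, MT-TA and MT-TN antisense).

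Over all 68 features the median log2 fold change was −0.044, with 32 higher and 36 lower. Over the 13 sense mt-mRNAs it was 0.22, with 9 higher and 4 lower. The 2 mRNAs of complex V (MT-ATP8 and MT-ATP6) and the mRNA of complex III (MT-CYB) were higher in PDE12-/-, as were 6 of the 7 of complex I, which had a median of 0.22 (all but MT-ND6, whose value of −0.20 turned to 0.087 with library totals). The 3 mRNAs of complex IV were lower, with a median of −0.52, although MT-CO3 turned to 0.12 with library totals in place of TMM. On that scaling 11 of the 13 were higher and 2 lower, and with TMM 0 of the 13 passed the test. When the replicate number entered edgeR's fit as a block, the test called 4 of the 68 features (5.88%), 3 of them sense mt-mRNAs (MT-ND2, MT-CO1 and MT-CO2) and the fourth MT-TN antisense, and again no member. In that blocked edgeR fit, adjusted p was 0.0614 for MT-ATP6, 0.200 for MT-CYB and 0.251 for MT-ATP8.

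**Figure D2:**
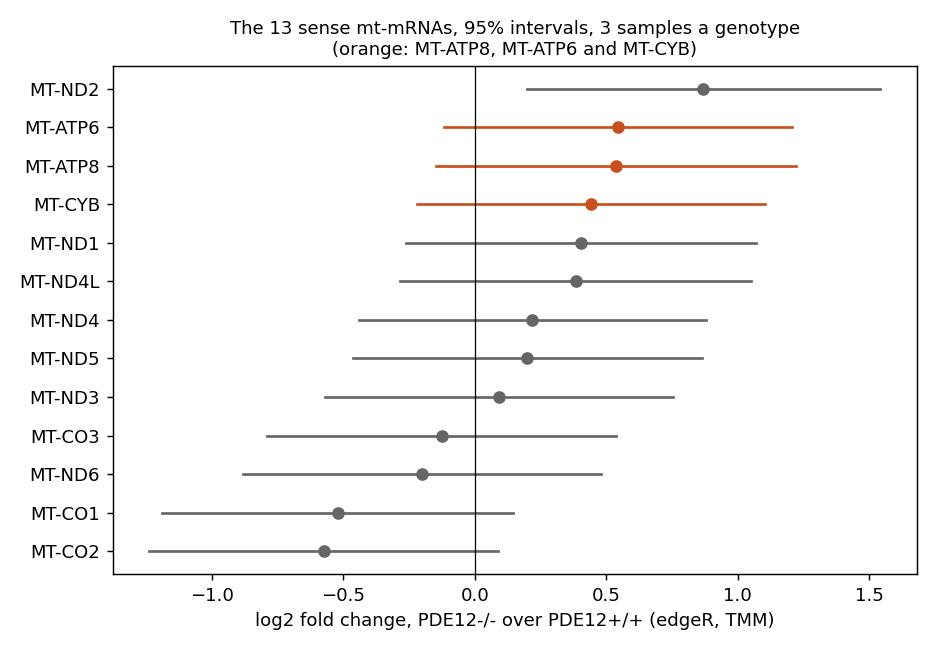
The horizontal axis gives the log2 fold change of PDE12-/- over PDE12+/+ from edgeR with TMM scaling for the 13 sense mt-mRNAs, with 95% intervals from 3 samples a genotype. MT-ATP6, MT-ATP8 and MT-CYB, in orange, stand at 0.54, 0.54 and 0.44, and their intervals include 0.

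The call on MT-ATP6 depended on how samples were scaled. With library totals in place of TMM, its log2 fold change was 0.79 and it passed edgeR's test (adjusted p = 0.0282), 1 of 2 features called among 68 (2.94%), the other being MT-ND2. MT-ATP8 (0.79, adjusted p = 0.375 in the edgeR test) and MT-CYB (0.67, adjusted p = 0.0816) did not. This scaling moved the median of all features from −0.044 to 0.23, and relative to that median MT-ATP6 was higher by 0.56 with library totals and by 0.59 with TMM. Its standard error was 0.22 with library totals and 0.34 with TMM.

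Per length, MT-ATP6 was the 5th most abundant of the 13 mt-mRNAs in PDE12+/+ and the 4th in PDE12-/-. MT-CYB was the 7th and MT-ATP8 the 9th in both genotypes. Levels of each member overlapped those of its neighbours in this order. For MT-ATP6 these were MT-ND3 and MT-ND4L in PDE12+/+ and MT-CO2 and MT-ND3 in PDE12-/-. For MT-CYB they were MT-ND4L and MT-ND4, and for MT-ATP8 MT-ND4 and MT-ND1. These overlaps are between samples, and within samples some neighbours kept their order. MT-ATP6 was above MT-ND4L (ratio per length 1.34 to 2.09), MT-ATP8 above MT-ND1 (1.04 to 1.65) and MT-CYB below MT-ND4L (0.689 to 0.917) in 6 of 6 samples. MT-ATP6 was also below MT-CO2 in each (0.202 to 0.673). The ratios of MT-ATP6 to MT-ND3 (0.528 to 1.58), MT-CYB to MT-ND4 (0.947 to 1.32) and MT-ATP8 to MT-ND4 (0.441 to 1.03) lay on both sides of 1.

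As shares of the sense counts of the 13 mt-mRNAs, a scale chosen after the data were seen, the 3 mRNAs did not overlap between genotypes. MT-ATP6 made up 2.89%, 3.69% and 4.18% of these counts in PDE12+/+ and 5.80%, 5.80% and 6.98% in PDE12-/-. MT-CYB made up 2.22%, 2.74% and 3.62% in PDE12+/+ and 4.26%, 4.68% and 4.69% in PDE12-/-. MT-ATP8 made up 0.308%, 0.384% and 0.294% in PDE12+/+ and 0.631%, 0.607% and 0.468% in PDE12-/-. Every PDE12-/- sample was thus above every PDE12+/+ sample for each of the 3 genes. The same held for their shares of total counts, without TMM, for which no count over all features was made.

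The summed share of the 3 mRNAs was 6.77% ± 1.34 in PDE12+/+ and 11.3% ± 0.747 in PDE12-/- (SD, n = 3), a ratio of means of 1.67. An exact two-sided permutation test over samples gave p = 0.1 for each gene, the smallest that 3 against 3 samples allow. Shares sum to 100%, and the groups were also apart and higher for MT-ND1 and MT-ND2, which makes 5 of 13 mt-mRNAs (38.5%), and apart and lower for MT-CO1 and MT-CO2, 2 of 13 (15.4%). With MT-CO1 and MT-CO3 left out of the total, MT-ATP6 (11.3% ± 1.50 and 16.5% ± 1.51) and MT-CYB (9.00% ± 1.46 and 12.1% ± 0.603) still did not overlap between genotypes (SD, n = 3). MT-ATP8 then did overlap (1.05% ± 0.232 and 1.52% ± 0.257, SD, n = 3). Fitted on sense mt-mRNA totals, a scaling also added after the data were seen, edgeR's test called 8 of 13 mt-mRNAs (61.5%), the 3 members among them, with adjusted p = 0.00340 for MT-ATP6, 0.00625 for MT-ATP8 and 0.0178 for MT-CYB.

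**Figure D3:**
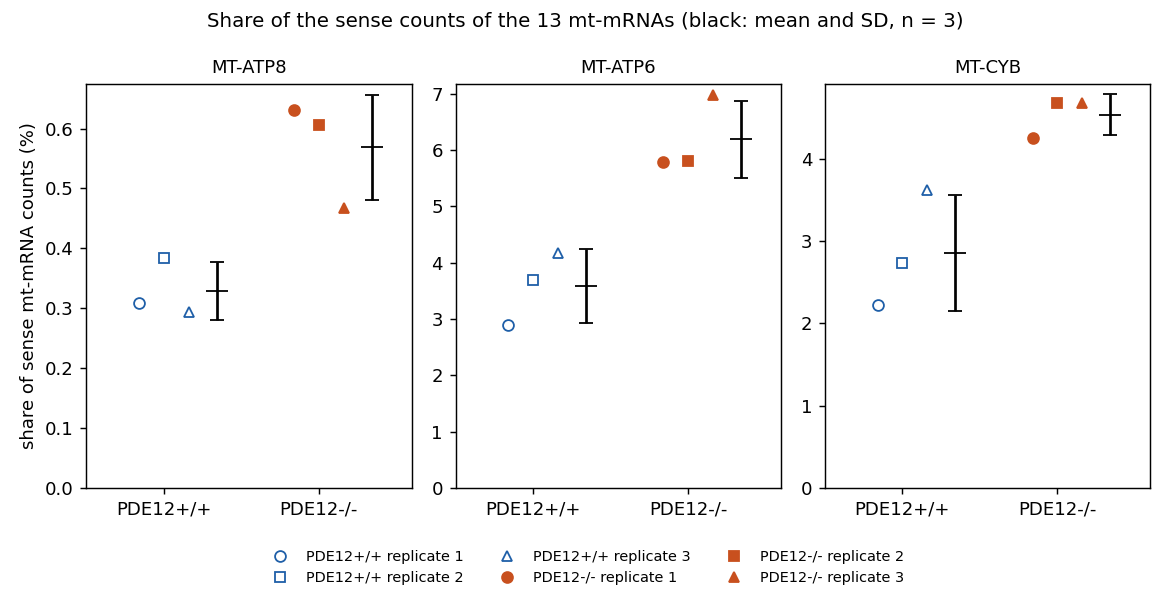
The vertical axes give the share (%) of the sense counts of the 13 mt-mRNAs held by MT-ATP8, MT-ATP6 and MT-CYB in each sample, with the mean and SD of 3 samples in black. The PDE12-/- samples lie above the PDE12+/+ samples in each panel, as they do for 5 of the 13 mt-mRNAs.

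Ratios within a sample need no scaling between samples. MT-ATP6 and MT-ATP8 differ in counts per length although they are parts of the same mRNA. The ratio of MT-ATP6 to MT-ATP8 per length was 2.85, 2.92 and 4.33 in PDE12+/+ replicates 1, 2 and 3. In PDE12-/- it was 2.79, 2.91 and 4.53. MT-ATP6 was higher in 6 of 6 samples (mean log2 ratio 1.73 ± 0.326, SD, n = 6 samples). An exact two-sided sign-flip test gave p = 0.03125, the smallest that 6 samples allow, and 0.0352 after adjustment over 9 comparisons between genes. That test takes the 6 samples as independent, which samples paired by number would not be. With 3 pairs no sign-flip p below 0.25 is possible. Dividing the same whole-gene counts by the length that neither gene shares with a neighbour gave ratios between 2.33 and 3.79. Counts were not limited to reads within that length. How reads in the shared 46 nt were counted is not stated, and its part in the ratio was not tested.

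PDE12-/- and PDE12+/+ had nearly the same ratio of MT-ATP6 to MT-ATP8, with geometric means of 3.32 and 3.30. The log2 difference was 0.012 (exact two-sided permutation p = 0.9, n = 3 a genotype, adjusted p = 0.924 over 38 ratios), and between samples of the same number it was −0.024, −0.0083 and 0.068. The samples numbered 3 stood apart in both genotypes. Their 95% counting intervals, 3.78 to 4.98 and 4.09 to 5.04, lay above those of the other 4 samples, the highest of which ended at 3.55. The spread within each genotype, an SD of 0.34 and 0.39 on the log2 scale, was thus far larger than the difference between genotypes.

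MT-ND4L and MT-ND4 are the other mt-mRNA with overlapping genes (7 nt) and encode subunits of complex I. There the downstream gene had fewer counts per length, with ratios of MT-ND4 to MT-ND4L of 0.768, 0.690 and 0.703 in PDE12+/+ and 0.731, 0.580 and 0.647 in PDE12-/-. The downstream gene of the complex V mRNA was thus the higher of its pair in 6 of 6 samples, and that of this complex I mRNA the lower in 6 of 6.

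The ratio of MT-ATP6 to MT-CYB varied less. It was 2.18, 2.25 and 1.94 in PDE12+/+ and 2.28, 2.08 and 2.49 in PDE12-/-, and the groups overlapped. The log2 difference was 0.10 (exact two-sided permutation p = 0.4, n = 3 a genotype, adjusted p = 0.563). MT-ATP8 to MT-CYB was 0.764, 0.771 and 0.447 in PDE12+/+ and 0.816, 0.715 and 0.550 in PDE12-/-, with the samples numbered 3 again apart from the rest, here below them. Its log2 difference was 0.093 (exact two-sided permutation p = 0.8, n = 3 a genotype, adjusted p = 0.869). MT-ATP8 was the lower of the 2 in 6 of 6 samples per length. With the same whole-gene counts divided by the unshared length, its ratio to MT-CYB was between 0.575 and 1.05. That order thus does not hold in every sample on that scale.

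**Figure D4:**
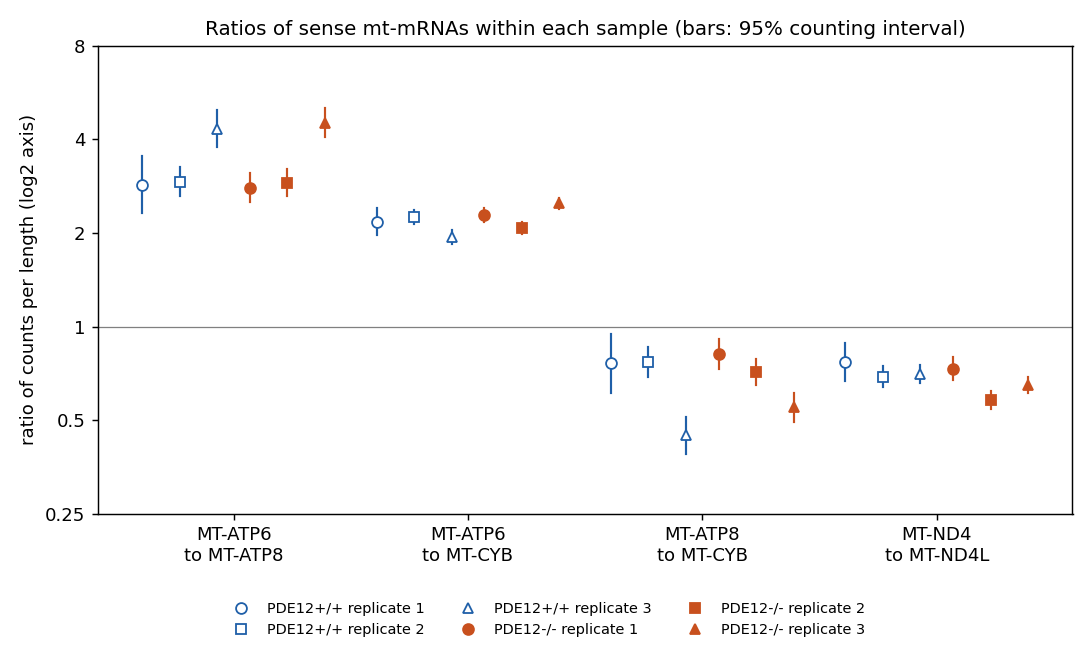
The vertical axis, on a log2 scale, gives the ratio of counts per length within each sample for MT-ATP6 to MT-ATP8, MT-ATP6 to MT-CYB, MT-ATP8 to MT-CYB and MT-ND4 to MT-ND4L, with exact 95% intervals that cover counting error only. For MT-ATP6 to MT-ATP8 the triangles, the samples numbered 3, stand at 4.33 and 4.53 and the other 4 samples between 2.79 and 2.92.

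Against the geometric mean of the 10 other mt-mRNAs, the 3 members were higher in PDE12-/- than in the same-numbered PDE12+/+ sample in 3 of 3 pairs. MT-ATP6 had ratios per length of 1.15, 1.45 and 1.42 in PDE12+/+ and 1.66, 1.82 and 2.14 in PDE12-/-. The groups did not overlap, with a log2 difference of 0.48 (exact two-sided permutation p = 0.1, the smallest possible, adjusted p = 0.317). MT-ATP8 had 0.406, 0.497 and 0.329 in PDE12+/+ and 0.596, 0.629 and 0.473 in PDE12-/-, and the groups overlapped, with a log2 difference of 0.47 (exact two-sided permutation p = 0.2, adjusted p = 0.345). MT-CYB had 0.529, 0.644 and 0.733 in PDE12+/+ and 0.729, 0.878 and 0.859 in PDE12-/-, where 0.729 lay just below 0.733, with a log2 difference of 0.38 and the same p-values. Of the 13 mt-mRNAs, each against the geometric mean of the other 12, the groups did not overlap for 5 (38.5%).

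Each member was set against the 10 other mt-mRNAs in turn. The ratio was higher in PDE12-/- with 9 of the 10 for each member and lower with MT-ND2, which encodes a subunit of complex I. This repeats the order of the edgeR fold changes and is not a separate result. MT-ND2, at a log2 fold change of 0.87, was the only one of the 10 above the members there. Differences were widest against MT-CO2 of complex IV, at 1.18 on the log2 scale for MT-ATP6, 1.17 for MT-ATP8 and 1.07 for MT-CYB. MT-ATP6 to MT-CO2 was 0.202, 0.289 and 0.304 in PDE12+/+ and 0.590, 0.517 and 0.673 in PDE12-/-, which did not overlap (exact two-sided permutation p = 0.1, adjusted p = 0.317). Against MT-ND2 the log2 difference was −0.34 for MT-ATP6, −0.35 for MT-ATP8 and −0.44 for MT-CYB.

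Groups did not overlap for 11 of these 30 ratios (36.7%). MT-ATP6 was apart from MT-CO1, MT-CO2, MT-CO3 and MT-ND4 (higher) and MT-ND2 (lower), MT-ATP8 from MT-CO1, MT-CO2, MT-CO3 and MT-ND6 (higher), and MT-CYB from MT-CO1 and MT-CO2 (higher). Of all 78 pairs of sense mt-mRNAs 34 were apart (43.6%), and of the 45 pairs without a member 23 were (51.1%). The share for the members was thus not above that of the other mt-mRNAs.

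The likeness of 2 mRNAs was described by the SD of their log2 count ratio over the 6 samples, where a small SD means that their counts went up and down together. MT-ATP6 and MT-CYB were the closest match of each other (SD 0.125), and MT-ND4L came next for both (SD 0.216 with MT-ATP6 and 0.156 with MT-CYB). MT-ATP8 was most like MT-ND1 (SD 0.232), and MT-ATP6 came after it (SD 0.326). MT-ATP8 stood 7th of 12 in the order for MT-ATP6, although the genes share an mRNA. MT-CO2 was the least like each of the 3 (SD 0.682 with MT-ATP8, 0.687 with MT-ATP6 and 0.637 with MT-CYB). MT-ATP8 had the fewest counts of the 3, between 98 and 454 a sample, against 919 to 5785 for MT-ATP6 and 707 to 3886 for MT-CYB, and the part of counting error in its higher SDs was not tested.

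The antisense share of MT-CYB was above those of the complex V genes in every sample, and the genotypes overlapped for the 3 genes. In mtDNA the transcript of the other strand, which holds MT-ND6, runs over the antisense side of MT-CYB before it reaches MT-ND6. The antisense share of MT-CYB was 41.1%, 35.7% and 25.0% of its counts in PDE12+/+ and 32.3%, 16.9% and 25.8% in PDE12-/-. That of MT-ATP6 was 6.22%, 2.29% and 2.35% in PDE12+/+ and 4.12%, 1.05% and 1.23% in PDE12-/-. That of MT-ATP8 was 11.7%, 2.13% and 5.06% in PDE12+/+ and 5.41%, 1.30% and 3.00% in PDE12-/-.

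MT-CYB had a higher antisense share than MT-ATP6 in 6 of 6 samples, by 26.6 percentage points on average (SD 7.13, n = 6 samples), and than MT-ATP8 in 6 of 6, by 24.7 (SD 6.58, n = 6 samples). Both differences had p = 0.03125 in an exact two-sided sign-flip test (adjusted p = 0.0352), which takes the 6 samples as independent and not as pairs. By mean antisense share MT-CYB was the 3rd of the 13 mt-mRNA genes, MT-ATP8 the 9th and MT-ATP6 the 10th. MT-CYB alone held 18.1% to 28.0% of all antisense mt-mRNA counts, MT-ATP6 1.36% to 2.55% and MT-ATP8 0.153% to 0.543%. For MT-ATP8 these shares rest on 6 to 21 antisense counts a sample, with exact 95% intervals as wide as 6.39% to 19.2% in PDE12+/+ replicate 1.

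Between genotypes the antisense shares overlapped for each of the 3 genes, as for 12 of the 13 mt-mRNA genes (MT-ND2 alone was apart, 1 of 13 or 7.69%). Mean shares were 33.9% ± 8.22 and 25.0% ± 7.75 for MT-CYB, 3.62% ± 2.25 and 2.13% ± 1.72 for MT-ATP6, and 6.30% ± 4.91 and 3.24% ± 2.06 for MT-ATP8 in PDE12+/+ and PDE12-/- (SD, n = 3). The mean was thus lower in PDE12-/- for the 3 genes, as for 9 of 13, with exact two-sided permutation p-values of 0.3, 0.5 and 0.5 and an adjusted p of 0.5 for each. Between samples of the same number the share was lower in PDE12-/- in 3 of 3 pairs for MT-ATP6 and MT-ATP8 and in 2 of 3 for MT-CYB (exact two-sided sign-flip p = 0.25, 0.25 and 0.5, where 3 pairs allow no p below 0.25). Among the other mt-mRNA genes it was lower in 3 of 3 pairs for MT-ND2 and MT-ND3 and higher in 3 of 3 for MT-CO1 and MT-CO2. The sample numbered 1 had the highest antisense share of its genotype for each of the 3 genes. This was not particular to them, as it held for every other mt-mRNA gene except MT-ND6.

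Antisense levels themselves had log2 fold changes of −0.21 for MT-CYB (standard error 0.34), −0.24 for MT-ATP6 (standard error 0.38) and −0.26 for MT-ATP8 (standard error 0.51), which became 0.097, 0.076 and 0.0073 with library totals in place of TMM. With TMM, edgeR gave each an adjusted p of 0.938, and 0 of 13 antisense mt-mRNA features passed (0%), and 0 of 13 had an unadjusted p under 0.05. DESeq2 also called 0 of 13.

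Antisense counts of MT-CYB were set beside the sense counts of MT-ND6, which come from the same strand. Per length the ratio was 1.68, 1.26 and 1.29 in PDE12+/+ and 1.52, 1.02 and 1.60 in PDE12-/-. The antisense side of MT-CYB was thus at least as high as the MT-ND6 mRNA in 6 of 6 samples, by 1.38-fold on average (exact two-sided sign-flip p = 0.03125, adjusted p = 0.0352). Here too the sign-flip test takes the 6 samples as independent and not as pairs. The genotypes overlapped, with a log2 difference of −0.045 (exact two-sided permutation p = 0.9, n = 3 a genotype, adjusted p = 0.924). This comparison reads the deposited strand columns as strands of the genome, and under the other reading, sense and antisense of each gene, it would set MT-CYB antisense beside MT-ND6 antisense.

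The genes next to the members were counted as well. MT-TK, the mt-tRNA gene for lysine just before MT-ATP8, had 0, 0 and 1 sense counts in PDE12+/+ and 5, 4 and 4 in PDE12-/-, too few for a fold change (adjusted p = 0.277 in the edgeR test). MT-TE, the mt-tRNA gene for glutamate before MT-CYB on the other strand, had 5, 16 and 3 sense counts in PDE12+/+ and 13, 9 and 9 in PDE12-/-, and more antisense counts in every sample, 19, 21 and 44 in PDE12+/+ and 29, 34 and 53 in PDE12-/-. For this gene the strand labels trade places under the other reading of the strand columns, described above for MT-ND6. MT-TT, the mt-tRNA gene for threonine after MT-CYB, had 6, 8 and 8 sense counts in PDE12+/+ and 8, 6 and 12 in PDE12-/-. Its antisense counts were higher than its sense counts in every sample, from 30 to 82.

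Of the neighbouring mt-mRNAs, MT-CO2 and MT-CO3, which flank the complex V genes, had log2 fold changes of −0.57 and −0.13, and MT-ND5 and MT-ND6, which precede MT-CYB, of 0.20 and −0.20. With library totals MT-CO3 and MT-ND6 turned to 0.12 and 0.087. With TMM, 0 of these 4 passed edgeR's test. The antisense share of MT-CO3 was between 0.965% and 3.23% and that of MT-CO2 between 1.08% and 6.35%, low like those of the complex V genes. That of MT-ND5 was between 36.1% and 53.9%, on the side of MT-CYB.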

How the data were processed

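RNA of isolated mitochondria, depleted of rRNA, was sequenced from 3 PDE12+/+ and 3 PDE12-/- samples with a stranded library kit. The authors trimmed the reads, aligned the pairs with Bowtie2 (GRCh38), took out those on mt-rRNAs, used Samtools to separate strands and Rsubread to count, and the deposited values are whole-number counts with no normalization. Tool versions, and how reads on overlapping genes were counted, are not given in the sources used here. The 6 MPAT-Seq samples were not used.

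Strand columns were turned into sense and antisense counts with the gene strands and lengths of GENCODE release 44 on GRCh38. Of 70 features, 68 were fitted and 2 had no counts. Genotypes were compared with the quasi-likelihood test of edgeR 4.0.16 in R 4.3.3 (TMM, common dispersion 0.0793, no covariate) with Benjamini-Hochberg adjustment over the 68 features and a threshold of 0.05. The script was checked on 20 simulated data sets. Ratios used log2 of counts plus a pseudocount of 0.5 per length, while ratios printed per sample with an interval have no pseudocount. They and the antisense shares were compared with exact permutation tests over samples (SciPy 1.17.1 in Python 3.11.15), where 3 against 3 samples allow no p below 0.1. Intervals are exact 95% binomial intervals and cover counting error only.

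Samples of the same replicate number had correlated deviations from their genotype means, at 0.613, 0.250 and 0.345 over 37 features (those with 10 or more counts throughout). The numbers in the labels were therefore taken to pair the samples, although only 4 of the 6 samples correlated best with their own number. PDE12+/+ replicate 3 correlated at 0.653 with a PDE12-/- sample of another number, above each same-number value, so the pairing is not certain. The members and lists were chosen with earlier results of these data known. Genes named are the members, for each the 2 mt-mRNAs most like it and the 1 least like it, its neighbours, and MT-ND4L and MT-ND4. Others are named where a count points to them, after their values were seen. Alternatives were the replicate block, DESeq2 1.42.0, library totals without TMM, a minimum of 10 counts, separate or smaller feature sets, other dispersions, the other reading of the strand columns, a pseudocount of 1, unshared lengths, summed counts of the other mt-mRNAs, antisense CPM, and leaving out each sample. Shares of sense mt-mRNA counts, sense mt-mRNA totals, and the block with library totals were added after seeing the data. Nuclear genes were not analysed here.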

Additional observations from a re-analysis of the deposited data

How the results depend on the processing

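The higher sense levels of MT-ATP8, MT-ATP6 and MT-CYB in PDE12-/- kept their direction under every alternative run, and calls on them changed with the scaling, alone or together with the block; the cause was not tested. In edgeR's test, library totals without TMM gave MT-ATP6 a log2 fold change of 0.79 (adjusted p = 0.0282). The replicate block with library totals, added after seeing the data, gave 0.80 for MT-ATP6 (adjusted p = 0.00510 in the edgeR test) and 0.69 for MT-CYB (0.0423). Sense mt-mRNA totals, also added then, gave 0.79 for MT-ATP6, 0.78 for MT-ATP8 and 0.66 for MT-CYB (adjusted p = 0.00340, 0.00625 and 0.0178). Changed features among 68 numbered 0 with TMM, 4 with the block, 2 with library totals and 3 with both, and changed sense mt-mRNAs 0, 3, 2 and 3, and 8 with sense mt-mRNA totals; higher against lower mt-mRNAs went from 9 and 4 to 11 and 2 with library totals. The replicate block changed no other call. DESeq2 called 0 of 68, with 4 at an unadjusted p under 0.05.

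Antisense log2 fold changes turned positive with library totals, at 0.0073 for MT-ATP8, 0.076 for MT-ATP6 and 0.097 for MT-CYB, and for MT-CYB at 0.050 with the block as well. As mean CPM of all counts, antisense was higher in PDE12-/- by 44.6 for MT-ATP6 and 887 for MT-CYB, against lower shares. For MT-ATP8 this mean was lower in PDE12-/-. Between samples of the same number, MT-ATP6 antisense CPM was higher in PDE12-/- only for replicate 1, and MT-CYB antisense CPM was lower for replicate 2.

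Leaving out each sample gave log2 fold changes of 0.26 to 0.84 for MT-ATP8, 0.31 to 0.90 for MT-ATP6 and 0.19 to 0.87 for MT-CYB sense, and of −0.72 to 0.23, −0.74 to −0.018 and −0.29 to 0.0093 antisense, where the positive values came without PDE12+/+ replicate 1 (MT-ATP8) and PDE12+/+ replicate 2 (MT-CYB). The log2 difference of MT-ATP6 to MT-ATP8 ranged from −0.21 to 0.21, of MT-ATP8 to MT-CYB from −0.17 to 0.25 and of MT-CYB antisense to MT-ND6 from −0.16 to 0.16, so none of these has a settled direction. Among other mt-mRNAs, MT-CO3 turned positive with library totals (0.12), with the block as well (0.13), with sense mt-mRNA totals (0.13) and with a minimum of 10 counts (0.050), and ranged from −0.29 to 0.096 over samples left out. MT-ND6 turned positive under the same 3 scalings (0.087, 0.084 and 0.088) and with the strand columns read as gene strands (0.060), and ranged from −0.39 to 0.11. The ranges were −0.018 to 0.64 for MT-ND5 and −0.11 to 0.25 for MT-ND3. Unshared lengths leave these differences as they are by construction. Total counts of 36338 in PDE12+/+ replicate 1 limit what that sample can show, above all for MT-ATP8 with 98 sense and 13 antisense counts.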
